A study of Arabidopsis thaliana with 8 samples.

Results

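MIPS1 (AT4G39800), MIPS2 (AT2G22240) and MIPS3 (AT5G10170) encode the myo-inositol-1-phosphate synthases of Arabidopsis thaliana. They were chosen by gene identifier because their enzymes make inositol and because FHY3 and FAR1 have been tied to them in leaves, and all 3 are among the 19853 genes of the deposited table. Transcripts were measured by RNA sequencing in inflorescences that held flowers up to stage 8, from 4 genotypes with 2 biological replicates each. The genotypes were the wild type Ler, ag-10, fhy3-68 and the double mutant ag-10 fhy3-68, so that fhy3-68 could be compared with its control in an otherwise wild-type and in an ag-10 background. Ler is the Landsberg erecta accession, ag-10 is a weak allele of the floral organ identity gene AGAMOUS, and fhy3-68 is an allele of FHY3 whose lesion the labels do not give. Each library is whole tissue, so fewer cells of a type and less RNA per cell cannot be told apart.

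MIPS converts glucose 6-phosphate into myo-inositol 1-phosphate, the committed step of inositol synthesis, and a monophosphatase then releases free inositol. Inositol feeds phosphatidylinositol signalling lipids, inositol phosphates and phytate, galactinol and raffinose, and, through oxidation, cell wall sugars. FHY3 and its homologue FAR1 are transposase-derived transcription factors of phytochrome A signalling, and in light-grown leaves FHY3 is known to bind the MIPS1 promoter and activate it. Loss of MIPS1 in leaves is known for light-dependent cell death that involves salicylic acid.

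In these inflorescences, MIPS1 and MIPS2 transcripts were lower in the libraries that carry fhy3-68, whichever the background. MIPS2 was called in each background (limma adjusted p = 0.0337 in Ler and 0.0499 in ag-10), where 3.05% and 1.5% of all genes were called. The call in Ler was lost when only the genotypes compared were fitted, and the call in ag-10 with the count test edgeR. MIPS1 missed the threshold in each taken alone (limma adjusted p = 0.0574 in Ler and 0.0992 in ag-10). MIPS1 and MIPS2 were called in the average, as were 17.9% of all genes. MIPS3 differed less and did not pass the test. Averaged over both backgrounds, MIPS1 fell to 0.337 of its level without the mutation and MIPS2 to 0.539, on the log2(value + 0.5) scale. The ag-10 mutation alone gave no call for any MIPS gene.

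The binding motif of FHY3, CACGCGC, and the G-box, CACGTG, were searched on both strands upstream of each gene start in the RefSeq annotation of TAIR10.1. The deposited table has no coordinates, and the submitters' build is not given in the sources used here. All 3 genes lie on the minus strand: MIPS1 at chr4:18469255-18472048 with 9 exons, MIPS2 at chr2:9451605-9454300 with 7 exons, and MIPS3 at chr5:3187277-3190321 with 10 exons. The sequences below are genomic bases before the annotated start, read 5′ to 3′ on the gene's strand. All sequences and motif positions given here are those of the reference genome. They were not checked in the plants sequenced. They are shown because the FHY3 motif is present in the first pair and absent from the third, with motifs in capitals. The MIPS1 stretch runs from 420 to 121 bases before its start (chr4:18472169-18472468). The MIPS2 stretch (chr2:9454301-9454550) and the MIPS3 stretch (chr5:3190322-3190571) are the last 250 bases before the start.
MIPS1: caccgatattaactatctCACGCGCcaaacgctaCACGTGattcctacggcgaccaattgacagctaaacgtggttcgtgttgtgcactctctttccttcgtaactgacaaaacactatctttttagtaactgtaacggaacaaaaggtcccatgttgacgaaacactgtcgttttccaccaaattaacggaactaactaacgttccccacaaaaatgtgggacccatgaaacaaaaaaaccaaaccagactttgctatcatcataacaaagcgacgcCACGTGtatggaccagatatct
MIPS2: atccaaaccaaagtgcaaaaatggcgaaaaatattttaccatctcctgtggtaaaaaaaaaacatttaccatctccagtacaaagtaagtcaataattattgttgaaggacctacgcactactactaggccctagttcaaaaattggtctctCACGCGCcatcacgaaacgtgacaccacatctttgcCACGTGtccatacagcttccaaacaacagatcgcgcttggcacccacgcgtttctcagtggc
MIPS3: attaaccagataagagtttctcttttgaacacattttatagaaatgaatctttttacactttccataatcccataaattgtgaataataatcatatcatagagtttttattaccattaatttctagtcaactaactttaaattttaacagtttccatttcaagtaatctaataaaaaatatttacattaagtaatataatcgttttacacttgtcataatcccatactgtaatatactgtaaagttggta

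In MIPS1 the FHY3 motif begins 402 bases before the start and is followed by a G-box at 386. Of the G-boxes in the 1500 bases upstream of MIPS1, the others lie at 848, 520, 142, 81 and 65. In MIPS2 the FHY3 motif lies at 98 and the G-boxes at 570 and 62. MIPS3 had no FHY3 motif within 1500 bases and G-boxes at 897 and 788. The FHY3 motif was present within 250 bases upstream in 1.33% of 19811 genes with coordinates, within 500 bases in 1.92% and within 1500 bases in 3.93%. For the G-box the same shares were 7.22%, 10.2% and 20.6%. The windows were set after the place of the MIPS1 motif was known, and a match of letters is a description and not a binding site.

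**Figure D1:**
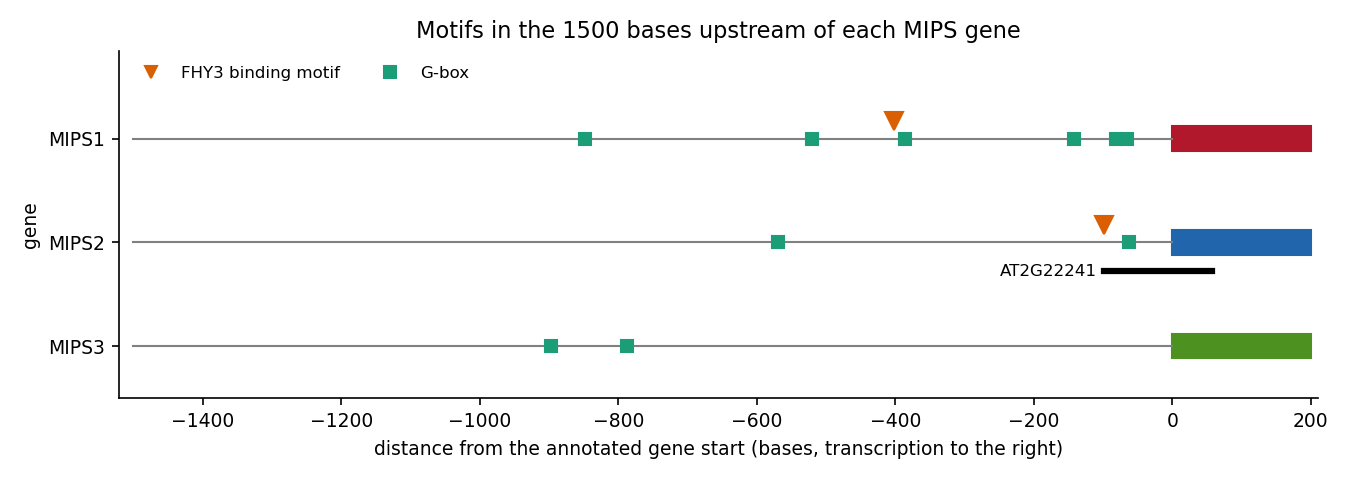
Map of the 1500 bases upstream of each MIPS gene, with distance from the annotated start in bases on the x axis and 1 line per gene. Triangles mark the FHY3 motif (402 bases before MIPS1, 98 before MIPS2), squares mark G-boxes, coloured blocks the start of each gene and the black bar the overlapping gene AT2G22241.

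The same 7-base motif was looked for in genes earlier described as FHY3 targets, to set the MIPS matches beside them. FHY1 and FHL, which carry phytochrome A into the nucleus, and DBE1, a starch debranching enzyme, had it within 250 bases, and in DBE1 both copies lay on the strand opposite the gene. ARC5, a plastid division gene, and HEMB1, of porphyrin synthesis, had none within 1500 bases. Each line below gives the motif in capitals with 10 bases either side, on the strand that carries it: minus for MIPS1, MIPS2, FHY1 and DBE1, plus for FHL. For DBE1 only the copy at 42 bases is shown. The other copy, at 82, has the base a just before the motif and g just after it, where the lines shown have t and c. The stretches lie at chr4:18472434-18472460 for MIPS1, chr2:9454382-9454408 for MIPS2, chr2:15802911-15802937 for FHY1, chr5:437268-437294 for FHL and chr1:813361-813387 for DBE1.
MIPS1: ttaactatctCACGCGCcaaacgctac
MIPS2: attggtctctCACGCGCcatcacgaaa
FHY1: agactcttttCACGCGCcaaatcaaac
FHL: ttctttagttCACGCGCcgttgcacgt
DBE1: accttcacctCACGCGCctacaaaacg

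Levels are normalised read counts: each gene's reads divided by its library's size factor, on a scale of about 1000000. A library held 12322061 to 16816619 reads over the listed genes. Each MIPS value rested on 328 to 3895 reads, and the lowest of these counts has an exact 95% counting interval of 293 to 365 reads. The spread between replicates differed by genotype: the chi-square per degree of freedom between the 2 libraries was 4.68 for Ler and 27.5 for fhy3-68, and 12.1 for both ag-10 and the double mutant. Replicate 2 of fhy3-68 was the lowest of all 8 libraries for each MIPS gene.

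MIPS1, the form known from the leaf cell death phenotype, had levels of 128 and 114 in the Ler libraries and 119 and 82.5 in those of ag-10. The fhy3-68 libraries had 57.0 and 23.6, and those of the double mutant 41.3 and 31.8. All 4 libraries with fhy3-68 were below all 4 without it, and the fhy3-68 replicates lay far apart. The means were 121 ± 9.57 for Ler and 101 ± 25.8 for ag-10, against 40.3 ± 23.6 for fhy3-68 and 36.6 ± 6.73 for the double mutant (SD, n = 2 each). The last pair of means came to 33.3% and 30.2% of Ler.

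MIPS2 had the highest level of the family. The Ler libraries had 276 and 278 and those of ag-10 had 265 and 250, while fhy3-68 had 168 and 123 and the double mutant 156 and 133. Again the groups with and without fhy3-68 did not overlap, and the Ler replicates were nearly equal. Means were 277 ± 1.10 for Ler and 257 ± 10.8 for ag-10, against 145 ± 31.4 for fhy3-68 and 144 ± 16.1 for the double mutant (SD, n = 2 each). The last pair of means came to 52.4% and 52.0% of Ler.

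For MIPS3 the Ler libraries had 55.8 and 61.2 and those of ag-10 had 48.0 and 59.3, while fhy3-68 had 54.4 and 36.9 and the double mutant 41.5 and 38.0. Here the groups overlapped, because replicate 1 of fhy3-68 lay above replicate 1 of ag-10. Means were 58.5 ± 3.77, 53.6 ± 8.00, 45.6 ± 12.4 and 39.8 ± 2.48 in the same order (SD, n = 2 each), and the double mutant came to 68.0% of Ler. Of all 19853 genes, 12.9% had all 4 libraries with fhy3-68 below all 4 without it, and 2 of the 3 MIPS genes were among them.

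**Figure D2:**
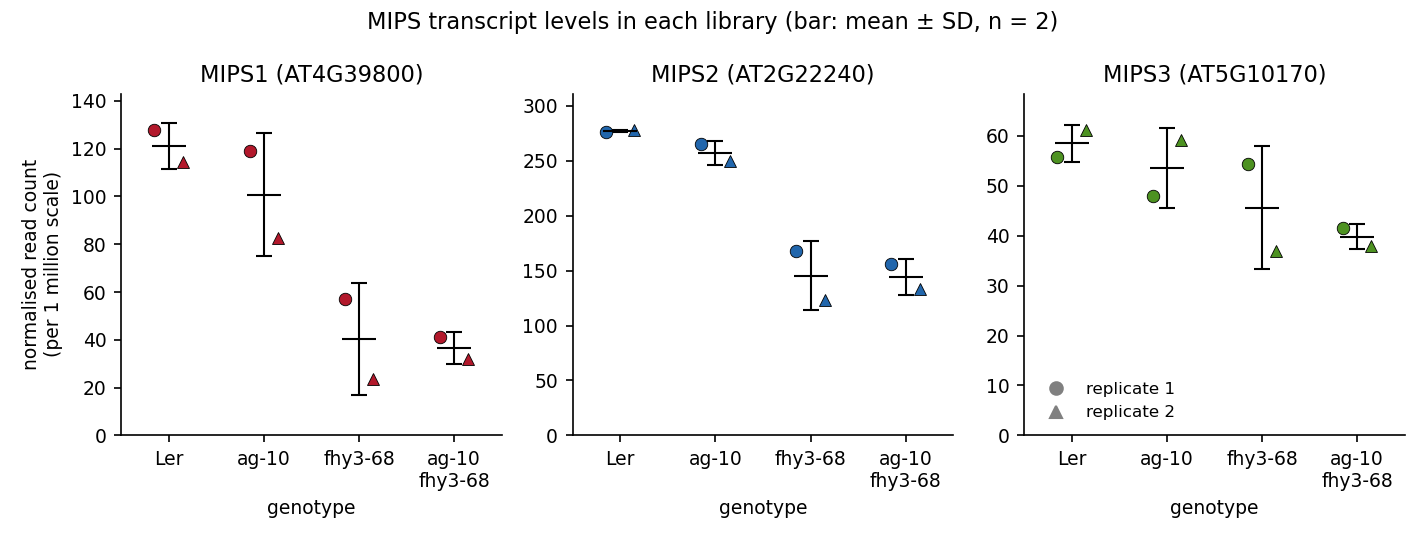
MIPS levels by genotype, as normalised read counts on a scale of about 1000000, with replicate 1 as circles, replicate 2 as triangles and a bar for the mean ± SD (n = 2). MIPS1 and MIPS2 libraries with fhy3-68 lie below all those without it, at 57.0 or less and 168 or less, while MIPS3 overlaps.

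In fhy3-68 against Ler, MIPS2 fell by 0.95 on the log2 scale (SE 0.15, limma adjusted p = 0.0337). MIPS1 had a larger log2 fold change, -1.70 (SE 0.38), which missed the threshold of 0.05 at a limma adjusted p = 0.0574. For MIPS3 it was -0.38 (SE 0.19, limma adjusted p = 0.258). So 1 of 3 MIPS genes was called, where 3.05% of all genes were called in either direction and 0.786% as lower. Among all genes, 26 had a lower log2 fold change than MIPS1 in this comparison and 179 than MIPS2. The MIPS2 call was lost without Ler replicate 1 (limma adjusted p = 0.200), Ler replicate 2 (0.223) or fhy3-68 replicate 2 (-0.72, 0.0546), and when only these genotypes were fitted (0.0607). Without fhy3-68 replicate 1, MIPS1 (-2.33, limma adjusted p = 0.00548) and MIPS3 (-0.66, limma adjusted p = 0.0287) passed.

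In the ag-10 background the same mutation gave like values. MIPS2 fell by 0.84 in the double mutant against ag-10 (SE 0.15, limma adjusted p = 0.0499), a call just inside the threshold. MIPS1 had -1.44 (SE 0.38, limma adjusted p = 0.0992) and MIPS3 -0.42 (SE 0.19, limma adjusted p = 0.250). With 1 of 3 called, the background was 1.5% of genes in either direction and 0.509% as lower. The MIPS2 call was lost without any 1 library of Ler, ag-10 or the double mutant (limma adjusted p = 0.119 to 0.236) and with edgeR (adjusted p = 0.0568). MIPS1 passed when 1 or the other fhy3-68 library, neither of them compared here, was taken out of the fit (limma adjusted p = 0.0123 for each).

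Averaged over both backgrounds, with 4 libraries on each side, MIPS1 fell by 1.57 (SE 0.27, limma adjusted p = 0.0112) and MIPS2 by 0.89 (SE 0.11, limma adjusted p = 0.00496). The value for MIPS3 was -0.40 (SE 0.13, limma adjusted p = 0.0741), with a 95% interval from -0.71 to -0.09. The 2 MIPS genes called stand against 17.9% of all genes called in either direction and 7.34% as lower. In this average, 29 genes had a lower log2 fold change than MIPS1, 173 than MIPS2 and 1690 than MIPS3. The MIPS2 call held under each of the 15 alternatives, with limma, edgeR or DESeq2 adjusted p up to 0.0306. MIPS1 lost its call only without Ler replicate 1 (-1.53, limma adjusted p = 0.0531), and MIPS3 passed without fhy3-68 replicate 1 (-0.54, limma adjusted p = 0.00763) and with DESeq2 (adjusted p = 0.0496).

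The double mutant was also set against Ler, where both mutations differ. MIPS1 fell by 1.72 (SE 0.38, limma adjusted p = 0.04996) and MIPS2 by 0.94 (SE 0.15, limma adjusted p = 0.0295), and MIPS3 had -0.55 (SE 0.19, limma adjusted p = 0.129). Of all genes, 4.33% were called here and 1.85% as lower. MIPS1 lost its call without any 1 library of Ler, ag-10 or the double mutant (limma adjusted p = 0.0650 to 0.265), and MIPS2 without any 1 library of Ler or the double mutant (0.105 to 0.215). MIPS3 passed without either fhy3-68 library (limma adjusted p = 0.0294 and 0.0292).

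The ag-10 mutation alone left the MIPS genes without a call. Against Ler the log2 fold changes in ag-10 were -0.29 for MIPS1 (95% interval -1.16 to 0.59), -0.11 for MIPS2 (-0.46 to 0.24) and -0.13 for MIPS3 (-0.57 to 0.30), each with a limma adjusted p = 1. Of all genes 0.00504% (1 gene) was called. Adding ag-10 to fhy3-68 gave -0.02 for MIPS1 (-0.90 to 0.86), 0.00 for MIPS2 (-0.35 to 0.35) and -0.17 for MIPS3 (-0.61 to 0.26). In that comparison limma called 0 genes (0%), with 427 at an unadjusted p under 0.05, while edgeR called 0 and DESeq2 1.

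The interaction asks whether fhy3-68 acted differently in ag-10 than in Ler, and it was 0.27 for MIPS1 (95% interval -0.97 to 1.51), 0.11 for MIPS2 (-0.38 to 0.60) and -0.04 for MIPS3 (-0.66 to 0.58). None of the 3 was called, and 0.00504% of all genes were. The MIPS1 interval was the widest, and a missed threshold does not show that the effects were equal. The comparisons with fhy3-68 share libraries, so they are not separate evidence of each other.

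**Figure D3:**
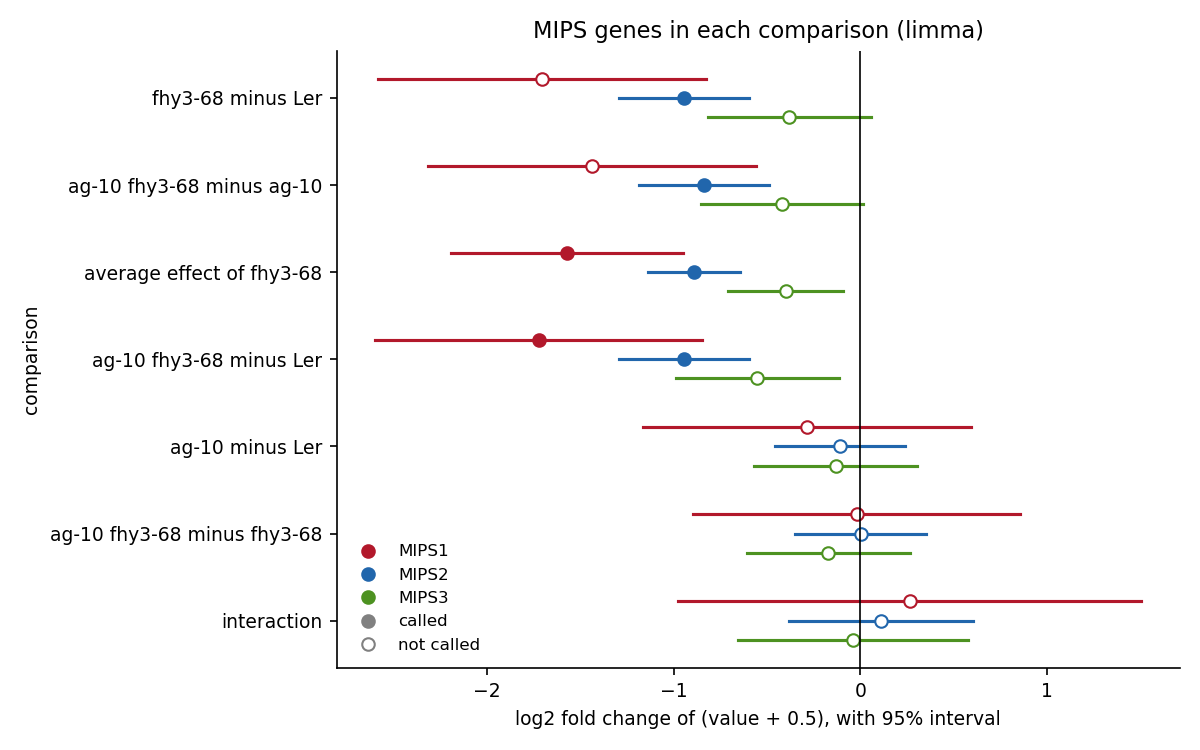
Log2 fold changes of (value + 0.5) for the 3 MIPS genes in the 7 comparisons, with 95% intervals, filled where the limma adjusted p was under 0.05. The points of the 4 comparisons of fhy3-68 with its absence lie left of 0 for each MIPS gene, with intervals for MIPS3 that reach past 0 in fhy3-68 against Ler and for the double mutant against ag-10, and the intervals of ag-10 and the interaction span 0.

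Per kb of exon, which allows levels of different genes to be compared, MIPS2 stood at 122, MIPS1 at 57.8 and MIPS3 at 29.9 in Ler. In fhy3-68 they stood at 63.9, 19.2 and 23.4, and in the double mutant at 63.5, 17.5 and 20.4. MIPS1 was thus above MIPS3 in Ler and ag-10, and below it on average in both genotypes with fhy3-68. In replicate 1 of fhy3-68 the pair was close, with MIPS1 at 27.2 and MIPS3 at 27.8, and per kb of coding sequence MIPS1 was the higher there, at 37.1 against 35.5.

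Summed per kb over the family, the Ler libraries had 211 and 208, those of ag-10 198 and 180, those of fhy3-68 129 and 84.3 and those of the double mutant 109 and 93.1. The means of the last pair of genotypes were 50.8% and 48.3% of Ler, and the groups with and without fhy3-68 did not overlap. MIPS1 supplied 27.5% of the sum in Ler, against 17.3% in fhy3-68 and 17.2% in the double mutant. MIPS3 supplied 14.3% in Ler, 21.6% and 22.4% in the fhy3-68 libraries and on average 20.2% in the double mutant. MIPS2 supplied 58.2%, 60.7% and 62.7%, and shares are a description with no test.

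**Figure D4:**
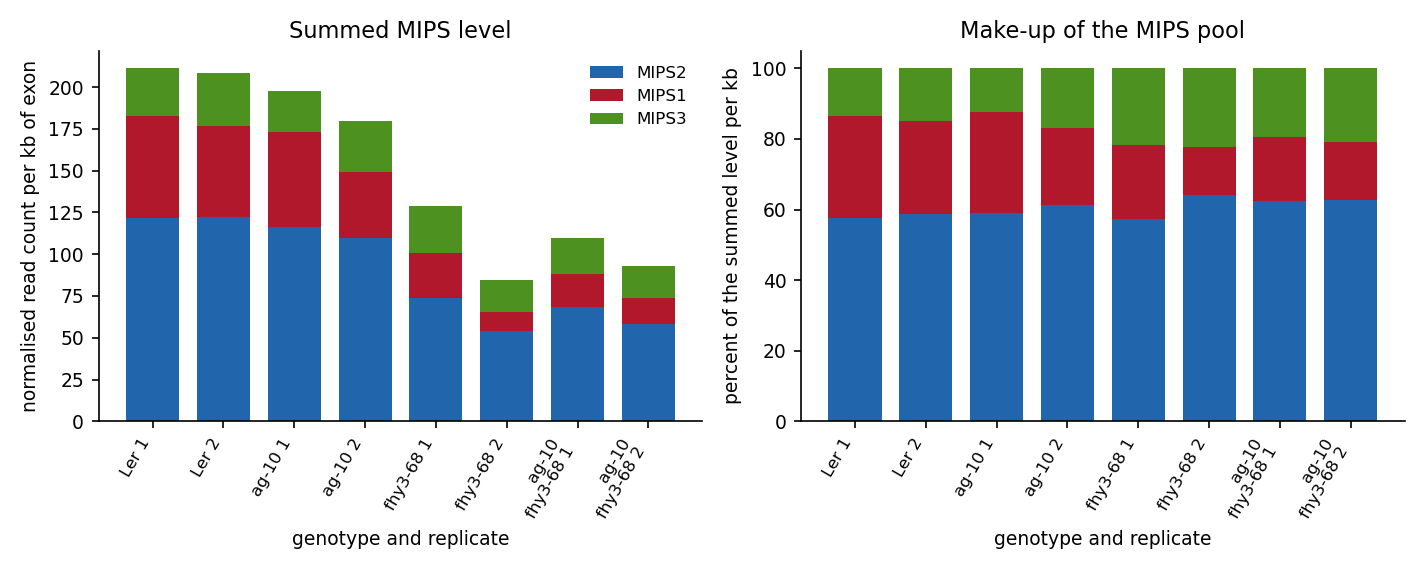
Left, the summed MIPS level per library in normalised read counts per kb of exon; right, the percent of that sum from each gene. MIPS2 makes up the largest part in each library, and the sum lies at 129 or less in the 4 libraries with fhy3-68 and at 180 or more in the others.

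The coding sequences of the family are alike, with 85.7% of aligned bases identical between MIPS1 and MIPS2, 80.4% between MIPS1 and MIPS3 and 79.5% between MIPS2 and MIPS3. Their transcripts share exact runs of at most 38, 35 and 23 bases in the same order. How reads that fit more than 1 place were counted is not given in the sources used here, so a part of the reads may have been dropped or shared.

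MIPS2 and MIPS3 overlap neighbouring gene models on the opposite strand, and whether counting used strand is not given in the sources used here. AT2G22230 shares 19 bases with the end of MIPS2 and AT5G10160 shares 36 with the end of MIPS3. Neither was called in the average effect of fhy3-68 (log2 fold changes -0.31 and -0.22, limma adjusted p = 0.0546 and 0.106). AT2G22241 covers the MIPS2 start, with 57 bases inside MIPS2 and 99 before it, a stretch that holds the MIPS2 copy of the FHY3 motif. It had 1 and 0 reads in the Ler libraries and 1 and 1 in those of ag-10, against 19 and 17 for fhy3-68 and 16 and 24 for the double mutant.

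The 4 libraries with fhy3-68 together held 76 AT2G22241 reads and the other 4 held 3, a ratio per read of library depth of 22.2, whose 95% counting interval of 7.33 to 110 covers counting error only and is no test. The gene was chosen after its values were seen. It passed the deposited filter, a value of at least 1 in 2 libraries, through the libraries with fhy3-68 alone, so it had to differ and no test of it is given. Its reads may come from either strand. They are few beside the 1709 to 3895 reads of MIPS2.

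FHY3 itself, the mutated gene, stood at 103 and 110 in Ler and at 70.5 and 93.0 in fhy3-68, and it had an average of -0.31 on the log2 scale (SE 0.09, limma adjusted p = 0.0558). Since the lesion is not given, its transcript does not check the genotype. FAR1, which acts with FHY3 on MIPS1 in leaves, rose by 0.49 (SE 0.06, limma adjusted p = 0.00468), with means of 43.1 for Ler, 58.4 for fhy3-68 and 65.9 for the double mutant.

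Of the 5 earlier described FHY3 targets analysed here, ARC5 and DBE1 were called lower with fhy3-68 in both backgrounds. Their average log2 fold changes were -2.90 and -2.05 (limma adjusted p = 0.00101 and 0.00309), each lower than that of MIPS1 and MIPS2. FHY1 stood at 13.3 to 21.1 in the libraries without fhy3-68 and at 0.22 to 1.61 in those with it. It reached the deposited filter only through the libraries without fhy3-68, so no test of it is given. FHL had 0.73 (limma adjusted p = 0.0615) and HEMB1 had -0.18 (0.122), and neither was called. Within this group FHY1, DBE1 and FHL have the motif, and FHL rested on only 182 reads over the 8 libraries. ARC5 has none in the 1500 bases before its annotated start, and bases after the start were not searched. A part of the motif in these changes was not tested. Over all 381 genes with the FHY3 motif within 500 bases, 15.5% were called lower and 16% higher in the average effect, against 7.35% and 10.6% of the genes with coordinates. In fhy3-68 against Ler the same genes had 5.77% called lower and 5.51% higher, against 0.787% and 2.27%. With the double mutant set against ag-10 they had 3.41% and 1.31%, against 0.51% and 0.989%. With the motif within 250 bases, 6.82% of 264 genes were called lower in fhy3-68 against Ler and 4.92% higher. These shares are a description with no test.

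The other genes of inositol metabolism were read against the share called over all genes. The 36 genes came from lists for the release, use, oxidation, phosphorylation or transport of inositol. In the average effect of fhy3-68, 1 of them was called lower and 4 higher, and 31 were not called. That is 13.9% called, beside 17.9% of all genes (7.34% lower and 10.6% higher). Their median log2 fold change was -0.05, beside -0.01 over all genes. In fhy3-68 against Ler 1 of the 36 was called (2.78%, beside 3.05% of all genes), in the double mutant against ag-10 none was, and in the double mutant against Ler 1 was.

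VTC4, IMPL2 and IMPL1, listed here under inositol synthesis, were not called. Their average log2 fold changes were -0.24, -0.24 and 0.11 (limma adjusted p = 0.0959, 0.125 and 0.222). Whether each of their enzymes releases inositol was not tested. Of the inositol oxidation genes, which lead to cell wall sugars, 2 of 5 rose in the average effect, where 10.6% of all genes were called higher. MIOX4, an inositol oxygenase, had 10.4 and 12.5 in the Ler libraries and 9.10 and 9.88 in those of ag-10, against 12.5 and 25.8 for fhy3-68 and 23.2 and 27.6 for the double mutant. MIOX4 thus had 1 fhy3-68 library within the Ler range, and rose on average, with a 95% interval of the log2 fold change from 0.51 to 1.49 (limma adjusted p = 0.0207). GLCAK1, a glucuronokinase, rose by 0.43 (SE 0.12, limma adjusted p = 0.0433).

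Among 14 inositol phosphate genes 2 rose on average, and among 9 phosphatidylinositol genes 1 fell, shares near the 10.6% and 7.34% of all genes called higher and lower. 5PTASE2, a phosphatase that removes a phosphate from inositol trisphosphate, stood at 20.1 and 19.0 in Ler and 37.2 and 35.4 in fhy3-68, an increase of 0.88 (SE 0.13, limma adjusted p = 0.0289), and its average increase was 0.73 (limma adjusted p = 0.00518). VIH1, a kinase of inositol pyrophosphates, rose by 0.61 on average (SE 0.16, limma adjusted p = 0.0384). PI4KA1, a phosphatidylinositol 4-kinase, fell by 0.23 (SE 0.06, limma adjusted p = 0.0314). ITPK4, an inositol phosphate kinase, had its call in the comparison of the double mutant with Ler (0.54, SE 0.11, limma adjusted p = 0.0472). Its level was highest in ag-10 alone, with a mean of 81.4 against 42.8 for Ler and 62.8 for the double mutant. Neither ag-10 against Ler (0.92, limma adjusted p = 0.144) nor the double mutant against ag-10 (-0.38, limma adjusted p = 0.130) was called for ITPK4.

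The 3 inositol transporters analysed here, INT1, INT4 and INT2, had average log2 fold changes of 0.40, 0.35 and 0.30 and were not called (limma adjusted p = 0.0549, 0.0642 and 0.223). INT1 stood at 31.4 to 34.9 in the libraries without fhy3-68 and at 37.5 to 53.5 in those with it. The galactinol synthase GolS1 had -0.98 (SE 0.37, limma adjusted p = 0.108) and the raffinose synthase RS5 -0.19 (limma adjusted p = 0.465). GolS1 rested on 553 reads over the 8 libraries.

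**Figure D5:**
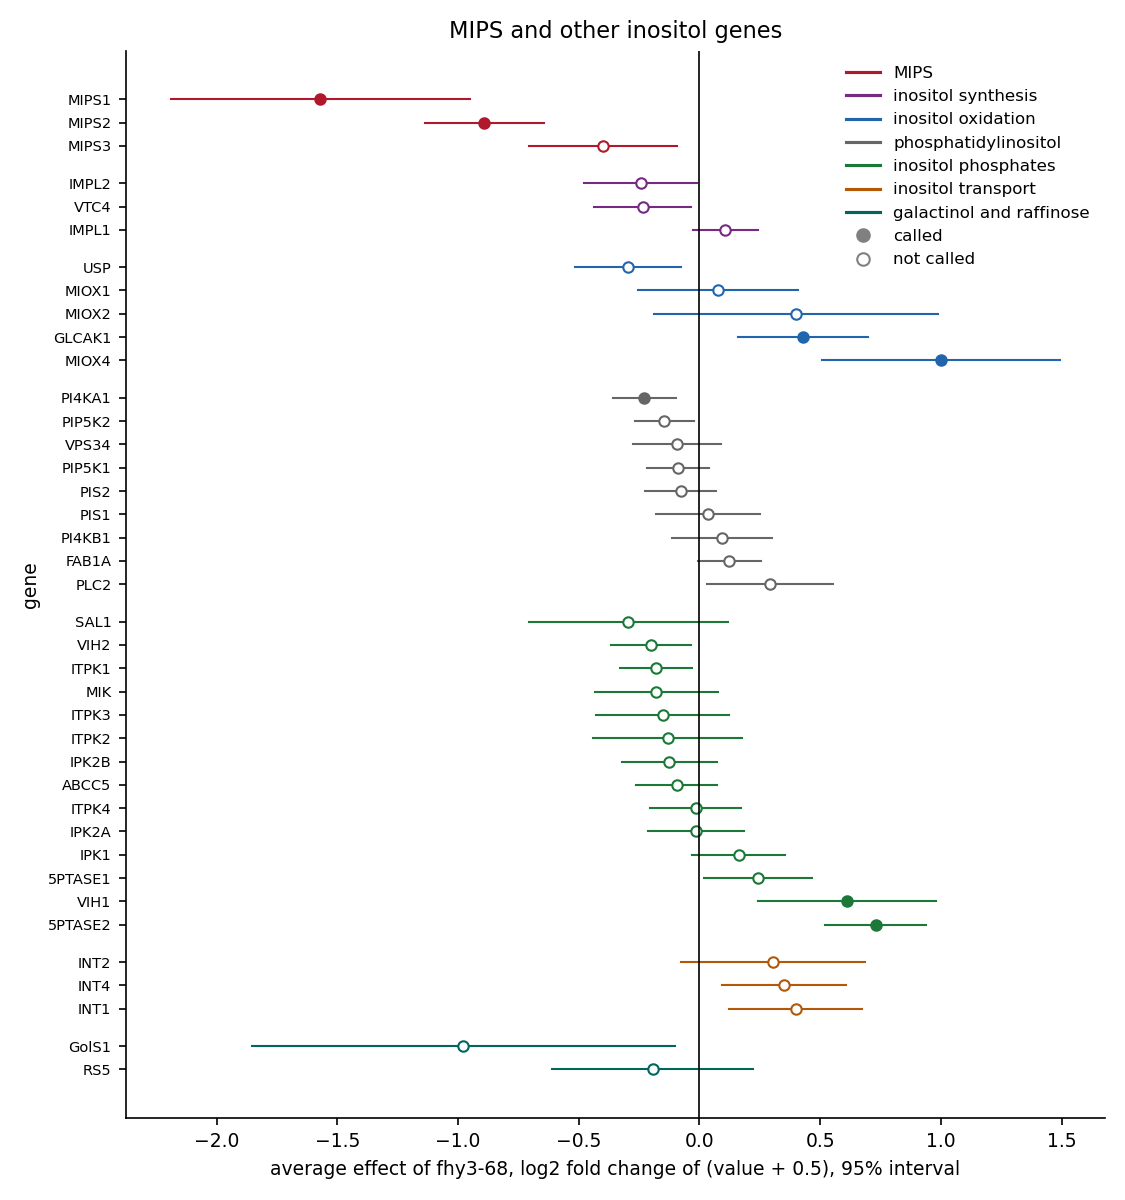
Average effect of fhy3-68 on the MIPS genes and 36 other inositol genes, as log2 fold change of (value + 0.5) with 95% intervals, grouped by role and filled where the limma adjusted p was under 0.05. MIPS1 and MIPS2 lie furthest left among the filled points, and 5 of the 36 others were called (13.9%, beside 17.9% of all genes).

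Because loss of MIPS1 in leaves is known to involve salicylic acid, 8 genes of that pathway were looked at. PR1 aside, the other 7 were not called in the average effect, where 17.9% of all genes were called and 10.6% as higher. No test of PR1 is given, because it reached the deposited filter only with its values in libraries that carry fhy3-68. PR1 had 0.07 and 0.08 in the Ler libraries and 0.07 and 1.07 in those of ag-10, against 0.91 and 1.37 for fhy3-68 and 2.92 and 3.11 for the double mutant, so ag-10 replicate 2 lay within the range of the libraries with fhy3-68. That library stood apart for the group: the 8 genes summed to 243 there, against 80.2 to 89.9 in the other libraries without fhy3-68 and 135 to 188 in those with it. PR2 and PR5 were also highest in it, at 49.9 and 70.2, against 1.21 and 0.79 for PR2 and 2.63 and 3.17 for PR5 in Ler. Replicate 1 of ag-10 had 3.81 for PR2 and 6.28 for PR5. Each library carrying fhy3-68 lay between these and ag-10 replicate 2, at 15.1 to 26.1 for PR2 and 20.4 to 24.6 for PR5. With PR1 included, 7 of the 8 genes had a positive log2 fold change in the average effect and 1 a negative one. Their median was 0.80, beside -0.01 over all genes. Without ag-10 replicate 2 the average log2 fold changes were -1.70 for MIPS1 and -0.91 for MIPS2 (limma adjusted p = 0.0211 and 0.0120), and both stayed called. Of 7 antioxidant enzyme genes CAT3, a catalase, was called higher (0.76, SE 0.17, limma adjusted p = 0.0231), and 6 were not called, beside 10.6% of all genes called higher.

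Summed levels of other gene groups were set beside the MIPS values, and their part in these was not tested. Calls are those of the average effect, in which 10.6% of all genes were called higher and 7.34% lower. The summed level of 6 touch and cold response genes was 35.9 to 163 without fhy3-68 and 326 to 822 with it, and 5 of the 6 were called higher on average. Green tissue markers (5 of 5 analysed) summed to 11118 to 12796 without fhy3-68 and 14461 to 16046 with it, and 1 was called higher. Evening clock genes (4 of 5) summed to 113 to 185 and 186 to 238, with 3 called higher, while morning clock genes (4 of 4) overlapped, at 369 to 423 and 345 to 447, with 0 called. Tapetum markers (5 of 5) summed to 465 to 567 and 327 to 429, with 2 called lower. Pollen markers (3 of 5) overlapped, at 6.42 to 40.2 and 31.8 to 146, with 0 called. Young flower markers (5 of 5) were present throughout, at 900 to 938 without fhy3-68 and 811 to 892 with it, with AP3 called lower and SEP3 higher.

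The genes whose pattern over the 8 libraries lay nearest to each MIPS gene were found by the root mean square difference of centred log2(value + 0.5), among 16060 other genes with a mean of at least 5. For MIPS1 they were AT5G07030 (0.18), AT4G23680 (0.20), the glucosyltransferase UGT84A1 (0.20), the pyrophosphatase PPa5 (0.22) and AT4G00870 (0.24). MIPS2 came 76th in that order and MIPS3 922nd. AT5G07030 stood at 159 and 131 in Ler and at 67.1 and 30.0 in fhy3-68. It was chosen for a pattern like that of MIPS1, and the gap between the fhy3-68 replicates is part of that pattern.

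Nearest to MIPS2 were AT1G78060 (0.09), the bHLH gene KDR (0.09), ICR1 (0.09), the folate enzyme gene MTHFR1 (0.09) and the auxin response factor gene ARF10 (0.10). MIPS1 came 5119th in the MIPS2 order, since its log2 fold changes were larger. For MIPS3 the nearest were AT4G16270 (0.04), AT5G08565 (0.06), AT1G52827 (0.07), GRP23 (0.08) and AT1G18180 (0.08). Like MIPS3, none of them was called in the average effect, which is no separate finding because they were chosen for a like pattern. Of these 15 genes MTHFR1 alone had the FHY3 motif within 500 bases.

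Counts over all genes set the scale for these calls. In fhy3-68 against Ler 449 genes were called higher and 156 lower, and in the average effect 2095 and 1458. With values scaled to library totals instead, the share called higher went from 74.2% to 55.7% in fhy3-68 against Ler, from 66.1% to 53.4% in the double mutant against ag-10 and from 59.0% to 45.0% in the average effect. MIPS1, MIPS2 and MIPS3 kept their direction in each of these under that scaling, with average log2 fold changes of -1.61, -0.94 and -0.44.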

How the data were processed

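Total RNA of Arabidopsis inflorescences was sequenced in 8 libraries of 4 genotypes, 2 each, grouped by their titles. What the authors deposited is a signal per gene, its reads over a library size factor, as worked out from the values, since 100% of them lay within 0.1 of a whole read after division by the worth of 1 read. The tools, per the submitters' processing notes and without roles, include HTSeq 0.6.1p1 with edgeR 3.10.0, and TopHat2 2.0.14 with CASAVA 1.8. The sources used here give no build, annotation, read length, counting mode or strand. Every one of the 19853 genes reached a value of 1 in 2 or more libraries. The number of value columns left unused was 0.

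Limma 3.58.1 (R 4.3.3) was run on log2(value + 0.5) with its trend option and all 8 libraries, each genotype having its own coefficient (4 residual and 3.41 prior degrees of freedom). P-values were adjusted over all genes by Benjamini-Hochberg, two-sided, and called under 0.05. Fold changes on this scale understate those of low genes. The average effect is the mean of the effects of fhy3-68 in Ler and in ag-10. The limma fit was tested on simulated counts with the same spread in each genotype, whereas the spread of these data differed by genotype.

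Alternatives were pseudocounts of 0.1 and 1, scaling to library totals, a mean value of at least 5, only the genotypes compared, edgeR 4.0.16 quasi-likelihood and DESeq2 1.42.0 on the recovered reads, a replicate block, and leaving out each library. Counting intervals are exact at 95% and cover counting error only. Names, gene models and sequences came from RefSeq on TAIR10.1, which held 19811 of the identifiers, read with Python 3.11.15 and aligned with Biopython 1.88.

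The MIPS genes and the gene lists were chosen with earlier results of these data known. Named genes were the MIPS genes, each inositol gene called in a comparison with up to 4 others per list by mean level, the 5 nearest patterns of each MIPS gene, FHY3, FAR1 and earlier described FHY3 targets. AT2G22241, PR1, PR2, PR5, CAT3, AP3, SEP3 and the genes that overlap MIPS2 and MIPS3 were named after their values were seen. Of the 41 inositol entries, 36 were analysed here; MIOX5, GolS2, GolS3, GolS4 and STS were not, nor were ELF4, ALD1, FMO1, APX2, AGP6 and AGP11 of the other lists.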

Additional observations from a re-analysis of the deposited data

How the results depend on the processing

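Of 330 alternative values for the 21 MIPS results, 271 kept their direction and side of the threshold, 28 lost a call, 15 gained one and 16 changed sign, all 16 in comparisons with no call; the causes were not tested. With 2 libraries per genotype, leaving 1 out leaves a lone library that is assumed to vary like the others.

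DESeq2 gave MIPS1 a call in fhy3-68 against Ler (-1.58) and in double mutants against ag-10 (-1.46) and MIPS3 one in the average effect (-0.39), and called 1491, 1068, 1589, 23, 1 and 3 genes in fhy3-68 against Ler, the double mutant against ag-10, against Ler, ag-10 against Ler, the double mutant against fhy3-68 and the interaction. EdgeR ended the calls of MIPS1 in the double mutant against Ler (-1.73) and of MIPS2 against ag-10 (-0.84). For MIPS2 in the double mutant against fhy3-68, edgeR gave -0.0111 and DESeq2 -0.0074. With only the genotypes compared, MIPS1 passed against ag-10 (-1.44), MIPS2 lost its call in fhy3-68 against Ler (-0.95), MIPS3 passed in the double mutant against Ler (-0.55), and 345, 504, 2917 and 9 genes were called in fhy3-68 against Ler, the double mutant against ag-10 and against Ler, and ag-10 against Ler. Library totals gave MIPS1 a call in fhy3-68 against Ler (-1.76) and 0.0108 in the double mutant against fhy3-68. A mean of at least 5 ended the calls of MIPS1 in the double mutant against Ler (-1.72) and of MIPS2 against ag-10 (-0.84), as did a pseudocount of 0.1 (-1.73 and -0.84, with 2 genes called in ag-10 against Ler), and a pseudocount of 1 ended that of MIPS2 (-0.83).

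No label says that a replicate number marks a shared batch or day, and the numbers were not taken as pairs. Deviations of same-numbered libraries correlated at -0.11 to 0.07 between Ler and the mutants and at 0.17, 0.28 and 0.45 among the mutants. With the replicate block MIPS1 passed in fhy3-68 against Ler (-1.70) and, for the double mutant, against ag-10 (-1.44), and 1849, 927 and 1959 genes were called in fhy3-68 against Ler and in double mutants against ag-10 and against Ler.

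Leaving out 1 library at a time, MIPS1 ranged from -2.33 to -1.08 in fhy3-68 against Ler, from -1.70 to -1.18 in the double mutant against ag-10, from -1.88 to -1.26 on average, from -1.91 to -1.54 in the double mutant against Ler, from -0.65 to 0.61 in the double mutant against fhy3-68 and from -0.36 to 0.89 for the interaction. MIPS2 ranged, in that order, from -1.17 to -0.72, from -0.95 to -0.72, with its average call kept throughout, from -1.06 to -0.83, from -0.22 to 0.22 and from -0.11 to 0.33. In ag-10 against Ler, MIPS1 ranged from -0.55 to -0.02 and MIPS2 from -0.15 to -0.07. MIPS3 ranged from -0.66 to -0.10 in fhy3-68 against Ler, from -0.57 to -0.27 in the double mutant against ag-10, from -0.54 to -0.26 on average, from -0.62 to -0.49 in the double mutant against Ler, from -0.45 to 0.11 against fhy3-68, from -0.28 to 0.0203 in ag-10 against Ler and from -0.32 to 0.24 for the interaction. Genes called ranged from 1 to 3399 in fhy3-68 against Ler, from 1 to 1820 in the double mutant against ag-10, from 2 to 2802 against Ler, from 929 to 6370 on average, from 1 to 4 in ag-10 against Ler and from 1 to 3 for the interaction. Each MIPS value rested on at least 328 reads.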
